A study of Mus musculus with 16 samples.

Results

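The genes described here are the cytochrome P450 genes of families 1 to 3 in mouse liver and eWAT, the labels' name for a white adipose depot. They were chosen by symbol alone: every probe set whose gene symbol begins with Cyp1a, Cyp1b, Cyp3a, or Cyp2 and a letter, without Cyp2c70 and without pseudogenes named -ps. The rule found 58 genes, each read by 1 probe set, among the 19505 named genes on the array. They fall into 17 subfamilies, of which Cyp2c (13 genes), Cyp3a (9), Cyp2d (8), Cyp2j (7), Cyp2b (5) and Cyp2a (4) are the largest.

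The study asked whether obesity of the father alters gene expression in the offspring. The F1 group held C57BL/6J male offspring of obese males, which had eaten a high-fat diet with 45% lipids for 12 weeks from the age of 8 weeks, and of control females. The CT group held C57BL/6J male offspring of chow-fed males and control females. The labels name no genetic change in any animal, and all offspring were male and were sampled at 14 weeks of age. Each of the 4 groups (liver F1, liver CT, eWAT F1 and eWAT CT) had 4 libraries of total RNA, 16 in all, which the labels call biological replicates. The labels name no father, litter or cage, so p-values measure only the spread between these animals, and littermates may be among them.

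Cytochrome P450 enzymes are haem monooxygenases of the endoplasmic reticulum that take electrons from P450 oxidoreductase and insert an oxygen atom into lipophilic substrates. Families 1 to 3 clear drugs and environmental chemicals and also act on steroids, retinoids and polyunsaturated fatty acids. Family 1 genes are induced through the aryl hydrocarbon receptor (AhR), Cyp2b genes through the nuclear receptor CAR and Cyp3a genes through the nuclear receptor PXR. Most of these enzymes are made by hepatocytes, many of them around the central vein, and several mouse genes differ between male and female liver.

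All values are RMA levels on the log2 scale, so a difference of 1 is a doubling. Library medians lay between 5.22 and 5.24 in liver F1, between 5.21 and 5.24 in liver CT, between 6.46 and 6.53 in eWAT F1 and between 6.34 and 6.56 in eWAT CT. The scale ended at 19.93, and each liver library had 33 to 36 probe sets at 19.9 or above, against 5 to 7 in each eWAT library. The tissue labels matched their defining markers: Alb, serum albumin, was at 19.93 in all 8 liver libraries, and Adipoq, the adipocyte hormone adiponectin, lay between 18.95 and 19.24 in eWAT and between 3.45 and 4.25 in liver. A probe set's level also depends on how well it hybridizes, so the order of levels between genes is not a result here; where members are grouped by their level, the grouping describes the readings of their probe sets. In bulk tissue fewer cells of a type and less RNA per cell cannot be told apart.

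Some libraries carried transcripts of other tissues or states. Saa1, an acute phase protein gene of hepatocytes, was at 7.56, 7.88, 14.09 and 13.01 in the liver F1 libraries and at 6.62, 6.14, 5.57 and 5.66 in the liver CT libraries. The pancreatic amylase gene Amy2a5 was at 17.69 in liver F1 replicate 4, against 4.96 to 9.79 in the other liver libraries. The mean of the 9 exocrine pancreas markers on the array was 12.37 in that library and between 4.40 and 5.64 in the other 7. Svs2, a seminal vesicle secretion gene, was at 16.22 in eWAT F1 replicate 1, against 2.47 to 4.88 in the other eWAT libraries. Hepatocyte markers varied widely among the eWAT libraries, as given with the eWAT comparison.

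In liver 15 of the 58 genes had a mean level of 15 or more, 11 lay between 10 and 15, 12 between 6 and 10 and 20 below 6. In eWAT 1 gene, Cyp2e1, was at 15 or more, 4 lay between 10 and 15, 17 between 6 and 10 and 36 below 6. The plot of all members by library shows every value.

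**Figure D1:**
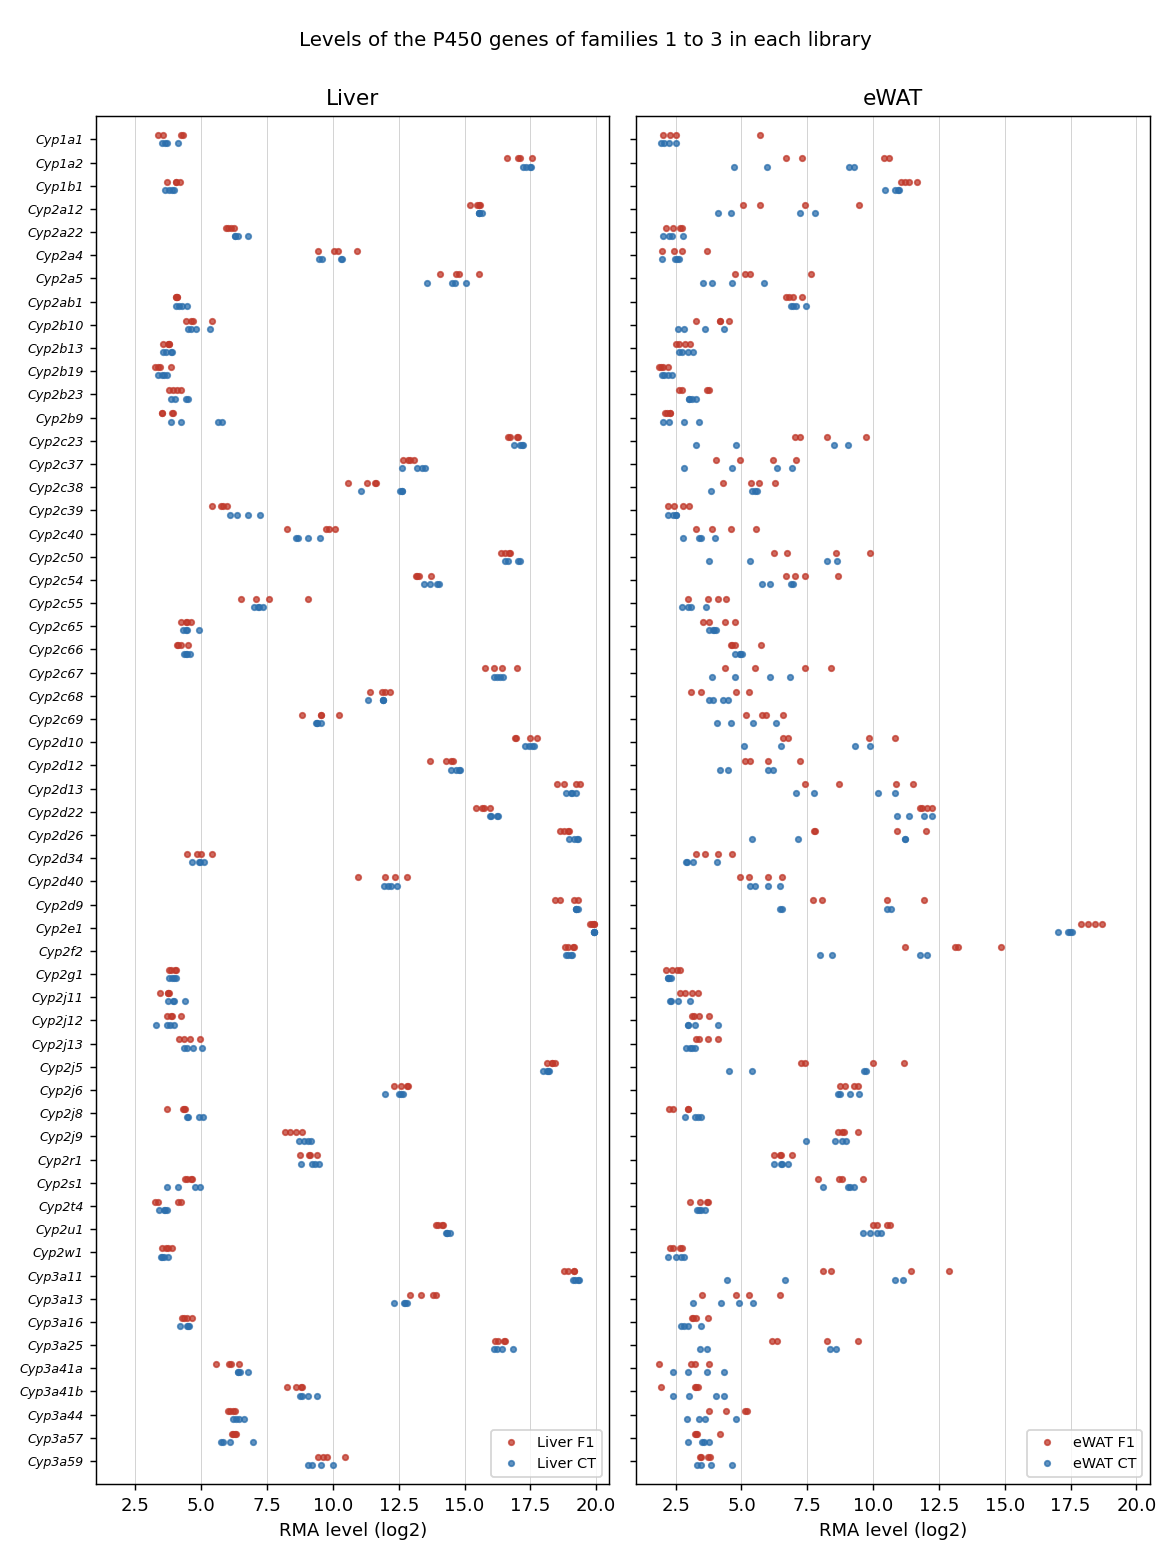
RMA level (log2, horizontal axis) of each of the 58 genes in each library, liver on the left and eWAT on the right; red points are F1 libraries and blue points CT libraries, 4 each. Cyp2e1 lies above 17 in every library of both tissues, and Cyp1b1, Cyp2s1, Cyp2ab1 and Cyp2c66 are the 4 genes with a higher mean in eWAT than in liver over both groups of fathers.

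Most of these genes were far higher in liver than in eWAT. A gene entered a test if its mean level reached the 25th percentile of all probe sets in the libraries compared, and it was called at an adjusted p under 0.05 in limma, with Benjamini-Hochberg adjustment over all genes tested. In F1 offspring 41 of the 47 members that entered were called higher in liver and 4 lower, beside 18.3% and 57.3% of all genes tested. In CT offspring 42 of 47 were called higher in liver and 4 lower, beside 17.9% and 57.3% of all genes. With no filter on dim genes, 50 of 58 were called higher and 4 lower in F1, and 51 and 4 in CT. The median difference, liver minus eWAT, of the members that entered was 5.66 in F1 and 5.56 in CT, beside -0.84 and -0.83 over all genes; with no filter on dim genes the medians over all 58 were 3.64 in F1 and 4.14 in CT, beside -0.23 and -0.24. The 2 tissues appear to have been normalized separately, and the split over all genes depends on how their scales are joined. Among all genes called, 24.2% in F1 and 23.8% in CT were higher in liver; this share was 49.4% and 49.3% after quantile normalization of the 8 libraries, and 66.1% and 65% after centring each library on its median. Among the members, quantile normalization called 41 higher and 3 lower in F1 and 46 and 3 in CT, and centring called 44 and 3 in each.

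The widest tissue differences were those of Cyp2c67 and Cyp3a11. Cyp2c67, a Cyp2c enzyme, had the widest in F1. Its mean was 16.33 ± 0.52 in liver and 6.42 ± 1.82 in eWAT (SD, n = 4 each), a difference of 9.91 ± 0.73 (SE, adjusted p = 3.12e-07). Cyp3a11, the main PXR-induced Cyp3a enzyme of mouse liver, had the widest in CT, with 19.24 ± 0.10 in liver, 8.27 ± 3.26 in eWAT and a difference of 10.97 ± 1.26 (SE, adjusted p = 1.46e-05). Both genes had no overlap between the tissues in either group of fathers.

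Cyp1b1, an AhR target that acts mainly outside the liver, went the other way. Its level in liver minus eWAT differed by -7.33 ± 0.20 (SE, adjusted p = 1.53e-10) in F1 and by -6.99 ± 0.17 (SE, adjusted p = 1.6e-10) in CT. Cyp2s1, known from epithelia, differed by -4.23 ± 0.30 (SE, adjusted p = 2.36e-07) in F1 and by -4.51 ± 0.33 (SE, adjusted p = 3.91e-07) in CT. Cyp2ab1 differed by -2.89 in F1 and by -2.88 in CT. Cyp2c66, known from the intestine, was also called lower in liver, by -0.71 ± 0.26 (SE, adjusted p = 0.0272) in F1 and -0.47 ± 0.15 (SE, adjusted p = 0.0143) in CT, but after centring it was higher in liver, by 0.66 in F1 (adjusted p = 0.0343) and 0.87 in CT (adjusted p = 0.000362). Its call in F1 was also lost when single libraries were left out (adjusted p of 0.0522 without eWAT F1 replicate 4 and of 0.053, 0.063 and 0.0657 without liver F1 replicates 1, 2 and 3).

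The members not called were Cyp2j9 in both groups of fathers and Cyp2c65 in F1. For Cyp2j9 the difference was -0.45 ± 0.22 (SE, adjusted p = 0.081) in F1 and 0.51 ± 0.31 (SE, adjusted p = 0.158) in CT, and the call depended on the scaling. After quantile normalization it was called higher in liver, by 0.83 in F1 (adjusted p = 0.00699) and 1.79 in CT (adjusted p = 0.000499). After centring it was also called higher, by 0.92 in F1 (adjusted p = 0.00258) and 1.85 in CT (adjusted p = 0.000394). Cyp2c65, known from the intestine, differed by 0.30 ± 0.26 (SE, adjusted p = 0.314) in F1 and by 0.60 ± 0.18 (SE, adjusted p = 0.0101) in CT, and after centring by 1.68 in F1 (adjusted p = 0.000127). Cyp2c67, Cyp2c65, Cyp2c66, Cyp2s1, Cyp2ab1 and, in these tissue comparisons, Cyp2j9 were chosen for naming after their values were seen.

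In liver no member passed the test between F1 and CT offspring. Of the 58 members 51 entered the test; Cyp1a1, Cyp2b13, Cyp2b19, Cyp2j11, Cyp2j12, Cyp2t4 and Cyp2w1 were too dim. None was called, beside 0.156% of all genes (23 of 14722). At an unadjusted p under 0.05, 1 member was higher in F1 and 10 were lower, beside 4.48% and 4.67% of all genes. By sign of the mean, 17 were higher and 34 lower, beside 49.5% of all genes higher; with no filter on dim genes the counts over all 58 were 21 and 37. The median difference of the 51 was -0.12, against 0 over all genes, and over all 58 with no filter it was -0.098. Liver values of F1 and CT did not overlap for 1 member that was higher in F1, Cyp3a13, and for 5 that were lower, Cyp2a22, Cyp2c39, Cyp2d26, Cyp2j8 and Cyp2u1, beside 2.68% and 2.69% of all genes. The count of 10 was 3 without CT replicate 2, 3 without CT replicate 3, 4 without F1 replicate 1, 5 without F1 replicate 2 and 6 without CT replicate 4. The median was -0.19 without F1 replicate 4 and lay between -0.18 and -0.13 without each other library. F1 replicates 3 and 4 were the libraries with Saa1 above 12. Without them 13 of the 49 members that entered were higher and 35 lower, with 2 and 10 at an unadjusted p under 0.05. With the mean of the acute phase genes as a covariate, 20 were higher and 31 lower, with 1 and 8; the covariate moved Cyp2c39 to -0.40, Cyp2c54 to -0.19, Cyp2c55 to 1.41, Cyp2d26 to -0.73, Cyp2j8 to -1.01 and Cyp2r1 to -0.81. These 2 alternatives were chosen after the data were seen. The part of the acute phase transcripts in the P450 values was not tested beyond them.

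**Figure D2:**
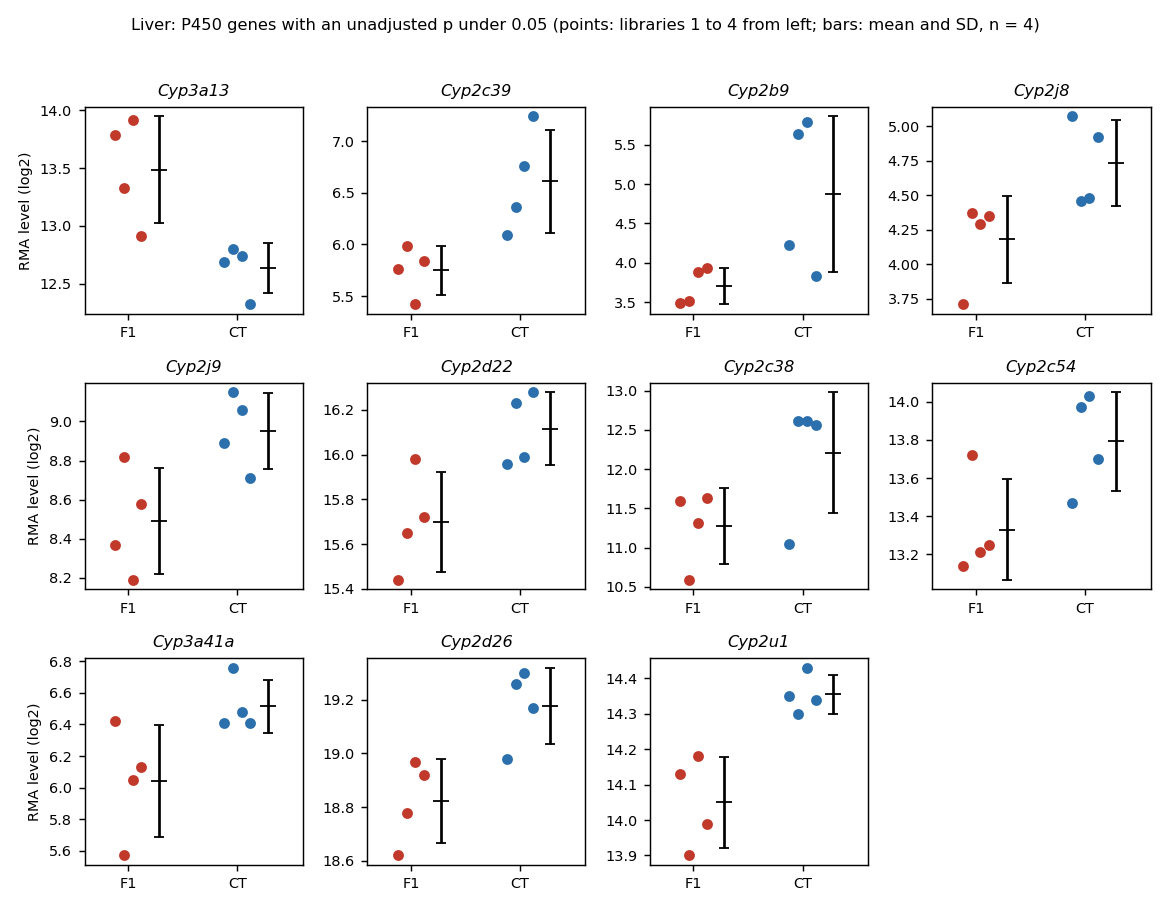
RMA level (log2) of the 11 members with an unadjusted p under 0.05 in liver, by library; red points are F1 and blue points CT, libraries 1 to 4 from the left, with the mean and SD of 4 beside them. Cyp3a13 is the 1 member with higher F1 values; the other 10 have lower F1 means, and Cyp2b9 and Cyp2c38 show wide spreads in CT or F1.

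In eWAT most members had higher F1 means, and none passed the test. Of the 58 members 39 entered. None was called, as for all genes (0 of 14773, 0%), of which 1476 had an unadjusted p under 0.05. At an unadjusted p under 0.05, 4 members were higher in F1 and 0 lower, beside 4.97% and 5.02% of all genes. By sign of the mean 35 of 39 were higher in F1, beside 49.4% of all genes; with no filter on dim genes 47 of 58 were higher. The median difference of the 39 was 0.69, against 0.00 over all genes, and over all 58 with no filter it was 0.415. Values did not overlap for Cyp2e1 and Cyp1b1, both higher in F1, beside 2.9% of all genes. The count of 4 was 1 without CT replicate 2, 2 without CT replicate 1, 6 without F1 replicate 3 or CT replicate 4 and 8 without CT replicate 3. The median was 0.28 without F1 replicate 4, 0.435 without F1 replicate 2 and 0.437 without CT replicate 2.

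**Figure D3:**
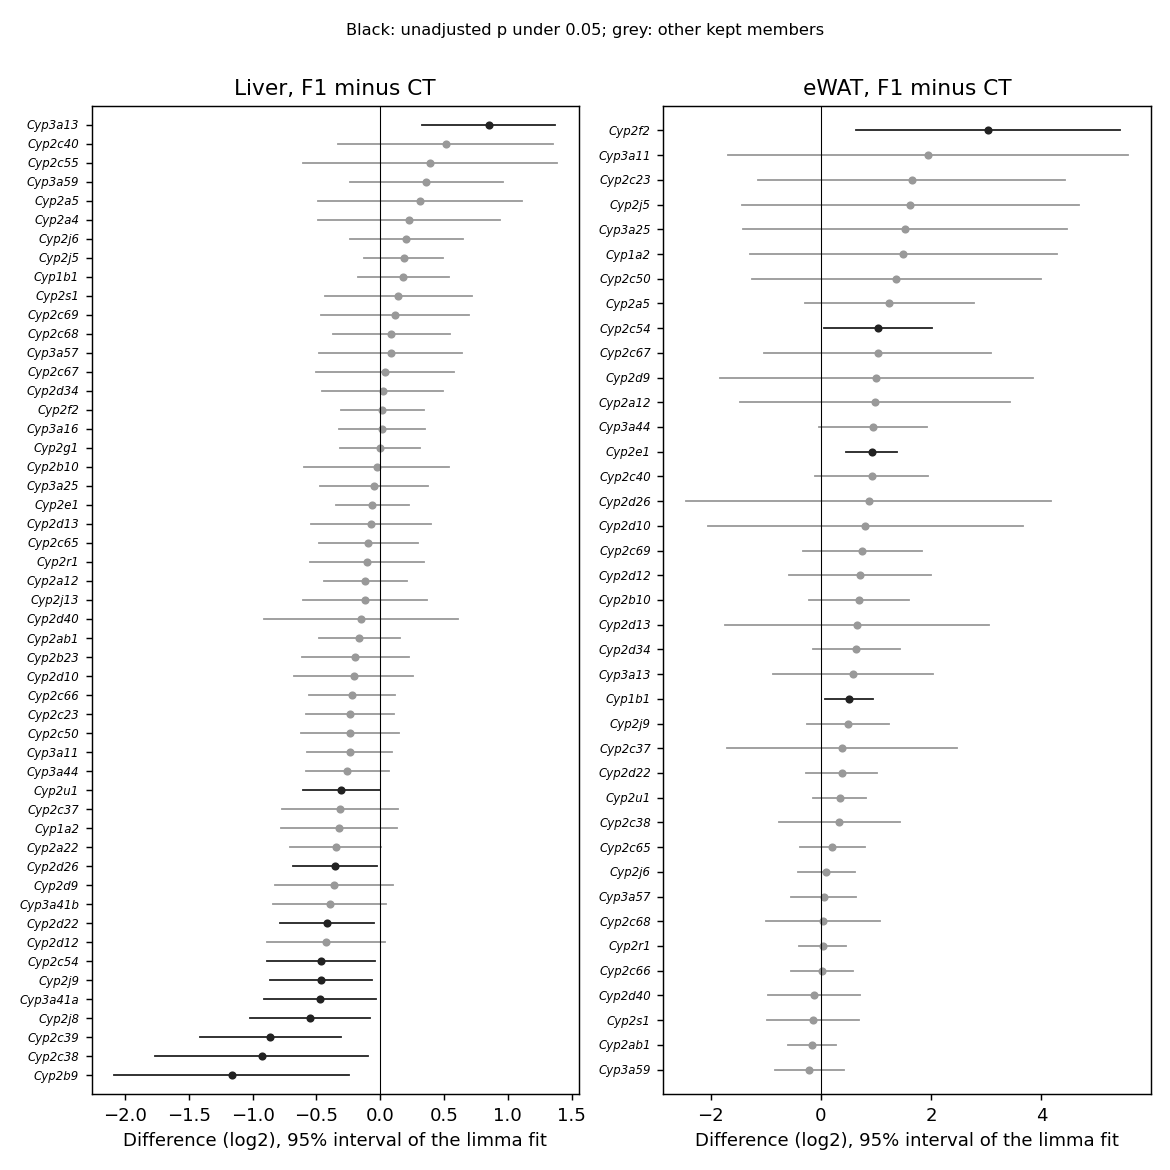
Difference F1 minus CT (log2, horizontal axis) of each member that entered the test, with its 95% interval from limma, in liver on the left and in eWAT on the right; black marks an unadjusted p under 0.05, grey the other members. In liver 34 of 51 members lie left of 0 and in eWAT 35 of 39 lie right of it, and no member passed at an adjusted p of 0.05 in either tissue.

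Hepatocyte transcripts moved with these members. The mean of 8 hepatocyte markers, Alb, Apoa1, Ttr, Tat, Hnf4a, Serpina1a, Apob and Cps1, was 10.86, 13.43, 10.53 and 14.31 in eWAT F1 and 8.09, 6.47, 13.36 and 13.02 in eWAT CT, against 19.3 to 19.42 in liver. All 8 had a higher F1 mean in eWAT, with a median difference of 1.94, and 0 were called. Alb was at 16.95, 18.77, 16.65 and 19.07 in F1 and at 14.16, 12.43, 18.91 and 18.55 in CT. CT replicates 1 and 2 were lowest in both, and F1 replicate 4 was highest.

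Members that are high in liver followed that order. Of the 15 members at 15 or more in liver, 12 were highest in F1 replicate 4 and all 15 were lowest in CT replicate 1 or 2. The exceptions were Cyp2e1 and Cyp2f2, highest in F1 replicate 1, and Cyp2d22, highest in CT replicate 4. Of the other 43 members, 15 were highest in F1 replicate 4 and 14 lowest in CT replicate 1 or 2. Of all genes 11.3% were highest in F1 replicate 4. The share of all genes lowest in CT replicate 1 or 2 was not counted, so the counts of lowest libraries have no background beside them. With the hepatocyte marker mean of each library as a covariate, 22 members were higher in F1 and 17 lower, with a median of 0.06, and 2 and 1 of them had an unadjusted p under 0.05. Without F1 replicate 4 and CT replicate 2, the libraries with the highest and the lowest marker mean, 22 were higher and 18 lower, with a median of 0.09. Without F1 replicates 1 and 4, 33 were higher and 5 lower, with a median of 0.62. These 3 alternatives were chosen after the data were seen. Whether hepatocyte RNA accounts for the higher F1 means was not tested beyond these values.

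**Figure D4:**
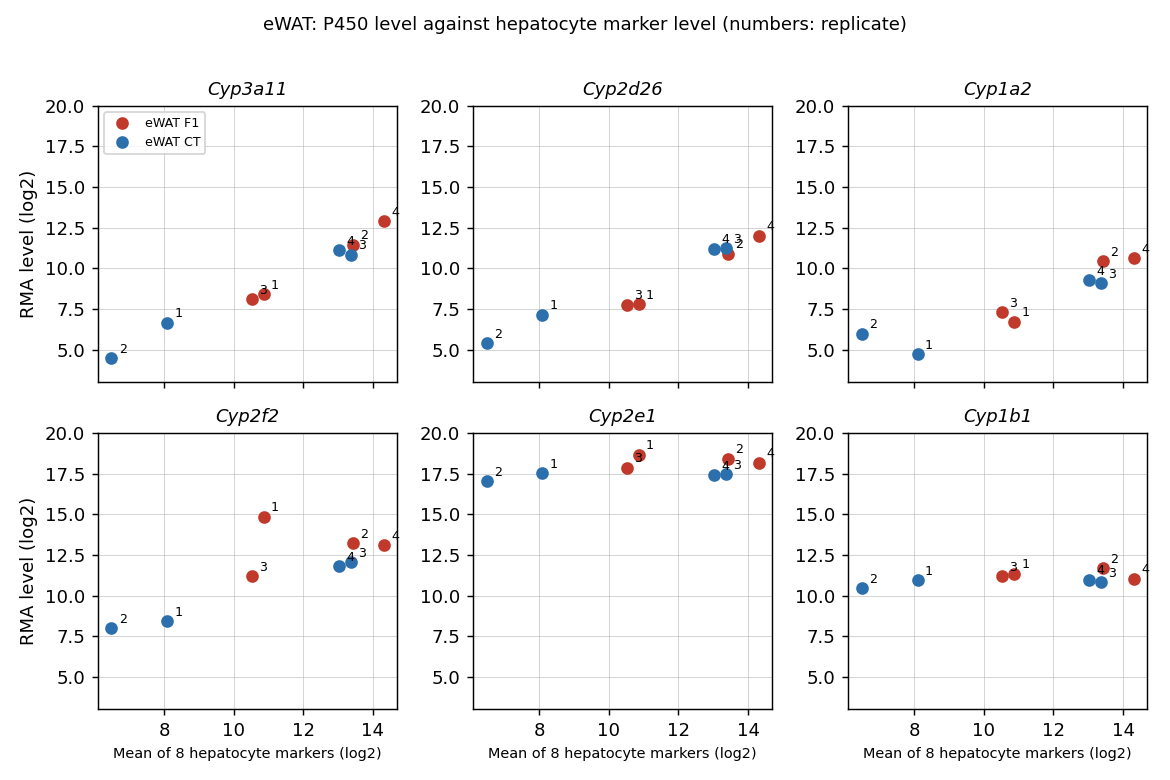
RMA level (log2, vertical axis) of 6 members in each eWAT library against the mean of 8 hepatocyte markers (log2, horizontal axis); red points are F1, blue points CT, and numbers are replicates. Cyp3a11, Cyp2d26 and Cyp1a2 are lowest in the CT libraries with the lowest marker means, while Cyp2e1 and Cyp1b1 are higher in all 4 F1 libraries than in all 4 CT libraries.

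The distance from liver is computed from the same eWAT levels, so it is not a separate measurement. Its medians ordered the libraries as the marker mean did, except that F1 replicates 1 and 3 changed places. For 12 of the 15 members at 15 or more in liver, the liver mean of the same father group minus the eWAT library had a median of 10.65, 8.07, 10.43 and 6.87 in F1 and of 12.34, 12.74, 8.21 and 8.41 in CT. In each library these 12 lay within 4 log2 units of each other: in F1 replicate 4 between 5.99 and 7.92, and in CT replicate 2 between 10.96 and 14.78. The other 3 were set apart by name and not by a rule. Cyp2e1 and Cyp2d22 were closer to liver than all 12 in every library. Cyp2f2 was so in every library except CT replicate 2, where its distance of 11 lay within their range. Cyp2e1 was 1.18 to 1.98 below liver in F1 and 2.38 to 2.88 in CT, Cyp2d22 was 3.48 to 3.91 below in F1 and 3.87 to 5.21 in CT, and Cyp2f2 was 4.15 to 7.8 below in F1 and 6.92 to 11 in CT. The liver level of Cyp2e1 is at the top of the scale, so its distance is compressed.

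**Figure D5:**
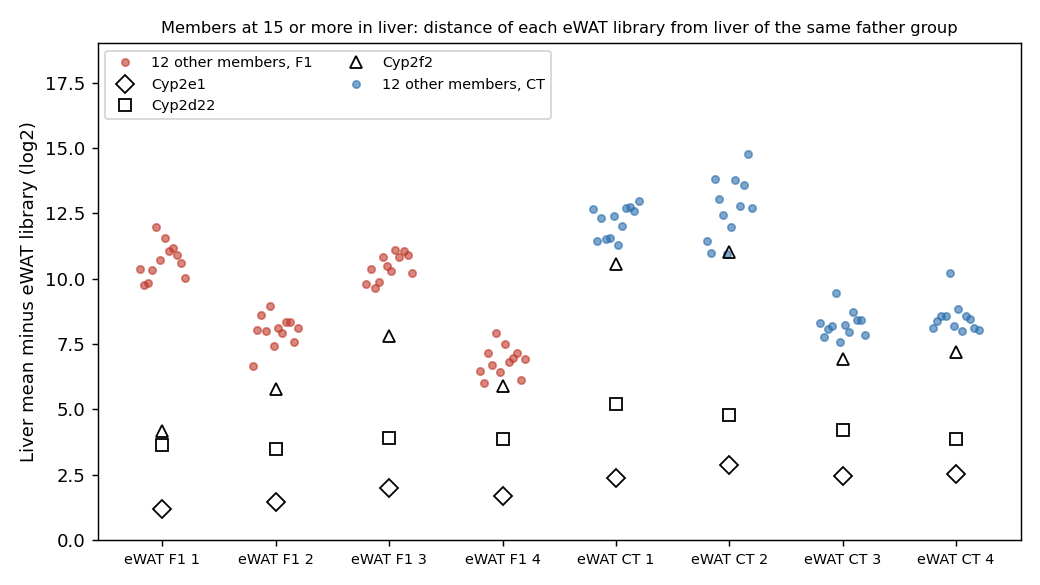
Liver mean of the same father group minus the eWAT library (log2, vertical axis) for the 15 members at 15 or more in liver, by eWAT library, F1 on the left; filled points are 12 members, and open symbols Cyp2e1, Cyp2d22 and Cyp2f2. The 12 sit between 5.99 and 7.92 in F1 replicate 4 and between 10.96 and 14.78 in CT replicate 2, while Cyp2e1 stays below 3 in every library.

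Cyp1a2, the constitutive family 1 enzyme of pericentral hepatocytes that oxidizes caffeine, was at 16.60, 17.03, 17.56 and 17.11 in F1 and 17.54, 17.48, 17.23 and 17.34 in CT in liver. The eWAT libraries read 6.71, 10.42, 7.29 and 10.62 in F1 and 4.72, 5.97, 9.09 and 9.28 in CT. The differences were -0.32 ± 0.20 (SE, adjusted p = 0.693) in liver and 1.5 ± 1.24 (SE, adjusted p = 0.704) in eWAT. F1 and CT values overlapped in both tissues, and the highest eWAT level was in F1 replicate 4. The eWAT difference was 0.061 with the hepatocyte marker covariate and 0.65 without CT replicate 1. The liver difference was -0.16 without F1 replicate 1, -0.48 without F1 replicate 3 and -1.28 with the acute phase covariate.

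Cyp1a1, the AhR-induced enzyme that is nearly silent without an inducer, was at 3.34, 4.24, 3.53 and 4.32 in F1 and 4.12, 3.49, 3.63 and 3.68 in CT in liver. Values in eWAT were 5.71, 2.51, 2.28 and 2.02 in F1 and 2.25, 2.05, 1.95 and 2.52 in CT. It was too dim to enter the test in either tissue; F1 replicate 1, the eWAT library with Svs2 at 16.22, was its 1 high library. The part of that library's other transcripts in the value was not tested.

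Cyp1b1, which oxidizes oestradiol and polycyclic hydrocarbons, was at 4.05, 3.68, 4.05 and 4.20 in F1 and 3.63, 3.89, 3.95 and 3.79 in CT in liver, where the groups overlapped. Its level in eWAT was 11.36, 11.67, 11.21 and 11.05 in F1 and 10.95, 10.46, 10.83 and 10.99 in CT, all 4 F1 libraries above all 4 CT libraries. The eWAT difference was 0.52 ± 0.19 (SE, adjusted p = 0.423). It was 0.45 with the hepatocyte marker mean as a covariate.

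Cyp2a5, the coumarin hydroxylase, was at 14.67, 14.05, 15.53 and 14.80 in F1 and 13.59, 15.05, 14.54 and 14.63 in CT in liver. eWAT values were 4.77, 5.12, 5.32 and 7.66 in F1 and 3.88, 3.53, 5.86 and 4.63 in CT. The differences were 0.31 ± 0.36 (SE, adjusted p = 0.855) in liver and 1.24 ± 0.68 (SE, adjusted p = 0.571) in eWAT. The groups overlapped in both tissues, and the liver sign turned without F1 replicates 3 and 4 (-0.09) and with the acute phase covariate (-1.11). In eWAT it differed by 0.59 with the hepatocyte marker covariate and by 0.28 without F1 replicate 4 and CT replicate 2. Cyp2a5 and Cyp2a4, a steroid hydroxylase, are close paralogs whose promoters are 97.6% identical. Their probe and transcript sequences were not compared, so their values cannot be assigned to 1 copy with certainty.

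Cyp2b10, the main CAR-induced gene, was at 4.40, 5.41, 4.69 and 4.60 in F1 and 4.59, 5.32, 4.80 and 4.5 in CT in liver. Its eWAT levels were 4.18, 3.26, 4.18 and 4.51 in F1 and 3.62, 2.82, 2.59 and 4.33 in CT. The differences were -0.03 ± 0.25 (SE, adjusted p = 0.988) in liver and 0.69 ± 0.41 (SE, adjusted p = 0.601) in eWAT. It was dim in both tissues, and its groups overlapped.

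Cyp2b9, higher in female than in male mouse liver, was at 3.49, 3.52, 3.88 and 3.93 in F1 and 4.22, 5.64, 5.79 and 3.83 in CT in liver. The difference was -1.17 ± 0.41 (SE, adjusted p = 0.449). In eWAT it was at 2.28, 2.16, 2.27 and 2.09 in F1 and 2.23, 3.38, 2.80 and 2.02 in CT, where it was too dim to be tested. The liver CT values spread widely, and CT replicate 4 lay among the F1 values. Of a list of 9 P450 genes known to be higher in female liver, 8 entered the liver test; 4 had a higher and 4 a lower F1 mean, and none was called. In eWAT all 3 that entered had a higher F1 mean and none was called. The filter uses the mean over both groups, so a dim gene can enter through its higher group. With no filter on dim genes, Cyp2b9, Cyp2b13, Cyp3a41a and Cyp3a41b had a lower F1 mean in eWAT, by -0.41, -0.12, -0.355 and -0.495. The others of the list had a higher one.

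The Cyp2c enzymes turn arachidonic and linoleic acid into epoxides, among other substrates. Cyp2c39, which also hydroxylates retinoic acid, was at 5.76, 5.98, 5.42 and 5.84 in F1 and 6.09, 6.36, 6.76 and 7.24 in CT in liver. The difference was -0.86 ± 0.25 (SE, adjusted p = 0.308), and every F1 library lay below every CT library. In eWAT it was at 2.21, 2.42, 2.78 and 2.99 in F1 and 2.39, 2.21, 2.52 and 2.50 in CT, at the low end of the scale and not tested.

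Cyp2c38 was at 11.59, 10.59, 11.31 and 11.63 in F1 and 11.05, 12.61, 12.62 and 12.56 in CT in liver. The difference was -0.93 ± 0.37 (SE, adjusted p = 0.502). The eWAT libraries read 4.31, 5.38, 5.68 and 6.27 in F1 and 5.50, 3.83, 5.40 and 5.59 in CT, with a difference of 0.33 ± 0.49 (SE, adjusted p = 0.836). In liver CT replicate 1 was the 1 low CT library and lay among the F1 values. The eWAT sign turned with the hepatocyte marker covariate, to -0.064, and without CT replicate 2, to -0.087.

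Cyp2c54 was at 13.14, 13.72, 13.21 and 13.25 in F1 and 13.47, 13.97, 14.03 and 13.70 in CT in liver, with a difference of -0.46 ± 0.19 (SE, adjusted p = 0.506). Values in eWAT were 7.03, 7.43, 6.70 and 8.65 in F1 and 6.07, 5.77, 6.94 and 6.87 in CT. The eWAT difference was 1.04 ± 0.43 (SE, adjusted p = 0.47). F1 means were lower in liver and higher in eWAT; the eWAT difference was 0.64 without F1 replicate 4 and 0.59 with the hepatocyte marker covariate.

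Cyp2c55, which CAR and PXR induce, was at 9.07, 6.52, 7.09 and 7.57 in F1 and 7, 7.18, 7.16 and 7.35 in CT in liver. Its level in eWAT was 2.98, 4.42, 4.10 and 3.74 in F1 and 2.98, 3.10, 3.67 and 2.73 in CT. The liver difference was 0.39 ± 0.45 (SE, adjusted p = 0.852), the groups overlapped, and without F1 replicate 1 it was -0.11. It was too dim to be tested in eWAT.

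The promoters of Cyp2c67 and Cyp2c65 are shown because these genes had a wide and a narrow tissue difference; they were chosen after their values were seen. They are the 250 bases before the start site from RefSeq (GRCm38.p6), 5′ to 3′, and capitals mark CAAAGTCCA, a site of the hepatocyte factor HNF4. That motif, on either strand, was in 9 of the 50 members with a promoter entry (18%) and in 0.38% of all 32851 promoters: Cyp2c40, Cyp2c65, Cyp2c67, Cyp2c68, Cyp2c69, Cyp3a11, Cyp3a16, Cyp3a41a and Cyp3a41b. Members of a subfamily share sequence by descent, so these 9 are not separate cases. The AhR core TNGCGTG was in 1 of 50 (2.0%, against 4.1% of all promoters), Cyp2c68, and TTATGTAA, a PAR-bZIP site, was in 0 of 50 (0.82% of all).
Cyp2c67, chr19:39649043-39649292 (- strand): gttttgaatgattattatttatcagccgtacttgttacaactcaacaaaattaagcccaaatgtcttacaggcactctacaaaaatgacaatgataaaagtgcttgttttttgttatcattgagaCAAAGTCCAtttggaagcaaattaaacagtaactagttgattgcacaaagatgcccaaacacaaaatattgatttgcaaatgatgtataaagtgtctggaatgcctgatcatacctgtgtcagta
Cyp2c65, chr19:39060756-39061005 (+ strand): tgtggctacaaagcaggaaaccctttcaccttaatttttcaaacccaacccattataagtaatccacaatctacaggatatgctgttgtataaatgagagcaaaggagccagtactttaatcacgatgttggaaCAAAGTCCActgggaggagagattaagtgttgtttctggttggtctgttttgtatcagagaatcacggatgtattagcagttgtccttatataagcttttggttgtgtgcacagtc
The motif began 125 bases before the start site in Cyp2c67 and 116 bases before it in Cyp2c65. The 2 promoters were 53.8% identical. Cyp2c67 was at 16.11, 16.42, 15.79 and 17.01 in F1 and 16.46, 16.13, 16.25 and 16.33 in CT in liver, and Cyp2c65 at 4.24, 4.40, 4.45 and 4.60 in F1 and 4.30, 4.45, 4.91 and 4.40 in CT there. Both genes held the motif, and in liver F1 and CT values overlapped for both.

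Cyp2d9, a testosterone hydroxylase higher in male liver, was at 18.43, 18.62, 19.31 and 19.16 in F1 and 19.22, 19.23, 19.22 and 19.30 in CT in liver. eWAT values were 7.71, 10.53, 8.07 and 11.94 in F1 and 6.53, 6.46, 10.54 and 10.69 in CT. The differences were -0.36 ± 0.21 (SE, adjusted p = 0.652) in liver and 1.01 ± 1.26 (SE, adjusted p = 0.802) in eWAT. The groups overlapped in both tissues. The eWAT sign turned with the hepatocyte marker covariate, to -0.55, and without F1 replicate 4 and CT replicate 2, to -0.48. The liver difference was -0.21 without F1 replicate 1, -0.72 without F1 replicates 3 and 4 and -1.46 with the acute phase covariate.

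Cyp2d26 was at 18.62, 18.78, 18.97 and 18.92 in F1 and 18.98, 19.26, 19.30 and 19.17 in CT in liver, where every F1 library lay below every CT library and the difference was -0.35 ± 0.15 (SE, adjusted p = 0.513). Its eWAT levels were 7.78, 10.90, 7.75 and 12.01 in F1 and 7.15, 5.40, 11.23 and 11.20 in CT, with a difference of 0.86 ± 1.47 (SE, adjusted p = 0.861). The eWAT sign turned with the hepatocyte marker covariate, to -1.01 (unadjusted p = 0.00854, adjusted p = 0.422), and without CT replicate 2, to -0.25.

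Cyp2d22 was at 15.44, 15.65, 15.98 and 15.72 in F1 and 15.96, 16.23, 15.99 and 16.28 in CT in liver and differed by -0.42 ± 0.16 (SE, adjusted p = 0.488). In eWAT it was at 12.06, 12.22, 11.79 and 11.85 in F1 and 10.90, 11.35, 11.92 and 12.25 in CT and differed by 0.38 ± 0.28 (SE, adjusted p = 0.681). Its groups overlapped in both tissues. In eWAT it differed by 0.14 with the hepatocyte marker covariate and by 0.14 without CT replicate 1, and the liver difference was -1.01 with the acute phase covariate.

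Cyp2d13, which RefSeq lists as a transcribed pseudogene and which the rule keeps by its name, was at 18.52, 18.76, 19.25 and 19.39 in F1 and 18.86, 19.03, 19.25 and 19.07 in CT in liver. The eWAT libraries read 7.43, 10.87, 8.71 and 11.50 in F1 and 7.76, 7.09, 10.83 and 10.20 in CT. The differences were -0.07 ± 0.21 (SE, adjusted p = 0.954) in liver and 0.66 ± 1.06 (SE, adjusted p = 0.851) in eWAT, and the groups overlapped. With the hepatocyte marker covariate the eWAT difference was -0.60, and without F1 replicate 4 and CT replicate 2 it was -0.59. The liver difference was -0.41 without F1 replicates 3 and 4, -1.01 with the acute phase covariate and 0.081 without F1 replicate 1. Its close relatives may share its probes.

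Cyp2e1, which oxidizes ethanol, acetone and other small molecules in pericentral hepatocytes and is also known from adipose tissue, was at 19.76, 19.85, 19.92 and 19.91 in F1 and 19.92, 19.93, 19.92 and 19.92 in CT in liver. These values sit against the upper limit of 19.93, which narrows any difference; the liver difference was -0.06 ± 0.13 (SE, adjusted p = 0.93). Values in eWAT were 18.68, 18.43, 17.88 and 18.17 in F1 and 17.54, 17.04, 17.47 and 17.42 in CT, with every F1 library above every CT library. The eWAT difference was 0.92 ± 0.21 (SE, adjusted p = 0.362), and it was 0.86 with the hepatocyte marker covariate. When all 16 libraries entered one fit, its adjusted p was 0.0471. That fit pools the spread of both tissues. The SD was 0.073 in liver F1 and 0.005 in liver CT, against 0.344 in eWAT F1 and 0.224 in eWAT CT. Liver values narrowed by the upper limit thus lower the spread behind this p.

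Cyp2f2, which activates naphthalene in the lung and marks periportal hepatocytes in liver, was at 18.82, 19.14, 18.92 and 19.11 in F1 and 19.05, 18.94, 18.84 and 19.09 in CT in liver, with a difference of 0.02 ± 0.14 (SE, adjusted p = 0.984). Its level in eWAT was 14.85, 13.23, 11.20 and 13.10 in F1 and 8.43, 7.98, 12.06 and 11.80 in CT. The eWAT difference was 3.03 ± 1.06 (SE, adjusted p = 0.412), and CT replicates 3 and 4 lay above F1 replicate 3. It was 2.44 without F1 replicate 1, the highest library, and 2.00 with the hepatocyte marker covariate.

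The Cyp2j genes encode fatty acid epoxygenases. Cyp2j8 was at 3.71, 4.37, 4.29 and 4.35 in F1 and 5.07, 4.46, 4.48 and 4.92 in CT in liver, a low level with every F1 library below every CT library and a difference of -0.55 ± 0.21 (SE, adjusted p = 0.486). In eWAT it was at 2.98, 2.26, 2.39 and 2.97 in F1 and 3.47, 2.85, 3.23 and 3.33 in CT and was not tested. Its readings were low in both tissues. Cyp2j9 was at 8.37, 8.82, 8.19 and 8.58 in F1 and 8.89, 9.15, 9.06 and 8.71 in CT in liver and differed by -0.46 ± 0.18 (SE, adjusted p = 0.487). In eWAT it was at 8.65, 9.41, 8.82 and 8.88 in F1 and 8.98, 8.81, 8.55 and 7.44 in CT and differed by 0.49 ± 0.33 (SE, adjusted p = 0.644). Its groups overlapped in both tissues, with a lower F1 mean in liver and a higher one in eWAT. Without eWAT CT replicate 4, the lowest library, the eWAT difference was 0.16, and with the acute phase covariate the liver difference was -0.082.

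Cyp2r1, which makes calcidiol from vitamin D, was at 8.73, 9.12, 9.41 and 9.08 in F1 and 9.31, 9.46, 8.78 and 9.20 in CT in liver and differed by -0.10 ± 0.20 (SE, adjusted p = 0.926). The eWAT levels of Cyp2r1 were 6.91, 6.22, 6.52 and 6.48 in F1 and 6.49, 6.75, 6.22 and 6.54 in CT, and they differed by 0.03 ± 0.19 (SE, adjusted p = 0.968). The groups overlapped in both tissues, and the sign turned with single libraries left out. Cyp2u1, a fatty acid hydroxylase, was at 14.13, 13.90, 14.18 and 13.99 in F1 and 14.35, 14.30, 14.43 and 14.34 in CT in liver, where no F1 library reached a CT library, and differed by -0.30 ± 0.14 (SE, adjusted p = 0.542). The eWAT libraries read 10.65, 10.14, 9.98 and 10.54 in F1 and 9.90, 9.62, 10.30 and 10.13 in CT, which differed by 0.34 ± 0.22 (SE, adjusted p = 0.625), with overlap, and by 0.072 without F1 replicates 1 and 4.

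Cyp3a11 was at 19.16, 18.91, 18.78 and 19.15 in F1 and 19.12, 19.21, 19.33 and 19.30 in CT in liver and differed by -0.24 ± 0.15 (SE, adjusted p = 0.683). Its eWAT levels were 8.41, 11.44, 8.11 and 12.89 in F1 and 6.65, 4.46, 10.83 and 11.13 in CT, and they differed by 1.95 ± 1.61 (SE, adjusted p = 0.705). Both groups spread over several log2 units in eWAT, and the eWAT difference was -0.10 with the hepatocyte marker covariate and -0.22 without F1 replicate 4 and CT replicate 2.

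Cyp3a13, a Cyp3a enzyme also made in the intestine, was at 13.79, 13.33, 13.92 and 12.91 in F1 and 12.69, 12.80, 12.74 and 12.32 in CT in liver. All 4 F1 libraries lay above all 4 CT libraries, and the difference was 0.85 ± 0.23 (SE, adjusted p = 0.273), the smallest unadjusted p among the members in liver. Its eWAT levels, 4.81, 5.27, 3.49 and 6.46 in F1 and 4.22, 4.89, 5.44 and 3.16 in CT, differed by 0.58 ± 0.64 (SE, adjusted p = 0.774), with overlap. Without CT replicate 4 the eWAT difference was 0.16, against 0.096 without F1 replicate 4 and -0.048 without F1 replicates 1 and 4. Signs differed within the subfamily in liver: Cyp3a41a, higher in female liver, was at 6.42, 5.57, 6.05 and 6.13 in F1 and 6.41, 6.76, 6.48 and 6.41 in CT and differed by -0.47 ± 0.20 (SE, adjusted p = 0.511). In eWAT Cyp3a41a was at 1.88, 3.78, 3.08 and 3.23 in F1 and 2.98, 2.40, 3.69 and 4.32 in CT and was not tested. The Cyp3a41a and Cyp3a41b promoters are 99.6% identical. Probe and transcript sequences of such pairs were not compared, so their values cannot be assigned to 1 copy with certainty.

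Promoters of 3 Cyp3a genes are shown, credited as above, because Cyp3a11 and Cyp3a13 had opposite signs in liver; they too were chosen after their values were seen, and capitals again mark CAAAGTCCA.
Cyp3a11, chr5:145879855-145880104 (- strand): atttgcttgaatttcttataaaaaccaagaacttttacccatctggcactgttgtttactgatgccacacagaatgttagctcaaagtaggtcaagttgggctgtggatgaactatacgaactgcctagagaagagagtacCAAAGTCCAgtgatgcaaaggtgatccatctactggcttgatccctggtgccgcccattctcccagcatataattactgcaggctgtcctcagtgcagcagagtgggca
Cyp3a16, chr5:145469724-145469973 (- strand): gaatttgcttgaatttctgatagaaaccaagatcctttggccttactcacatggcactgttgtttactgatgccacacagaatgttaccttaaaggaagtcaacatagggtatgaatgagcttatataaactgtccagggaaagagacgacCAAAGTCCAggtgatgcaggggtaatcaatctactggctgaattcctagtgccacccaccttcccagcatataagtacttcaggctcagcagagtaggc
Cyp3a13, chr5:137921620-137921869 (- strand): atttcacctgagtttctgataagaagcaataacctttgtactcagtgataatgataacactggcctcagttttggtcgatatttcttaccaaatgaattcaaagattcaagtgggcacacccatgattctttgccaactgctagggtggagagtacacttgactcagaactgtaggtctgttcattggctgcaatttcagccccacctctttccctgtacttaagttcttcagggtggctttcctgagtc
The motif began 109 bases before the start site in Cyp3a11 and 99 bases before it in Cyp3a16, and it was not found in this window of Cyp3a13. The Cyp3a16 promoter was 76.6% identical to that of Cyp3a11, and the Cyp3a13 promoter 57.2%. Cyp3a16, known from fetal liver, was at 4.64, 4.36, 4.25 and 4.46 in F1 and 4.53, 4.20, 4.48 and 4.44 in CT in liver and the groups overlapped.

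None of the other 35 members had an unadjusted p under 0.05 among those that entered a test between F1 and CT. In liver the 4 with the smallest p were all lower in F1. Cyp2a22 averaged 6.08 ± 0.12 in F1 and 6.43 ± 0.23 in CT (SD, n = 4 each), and the 2 means differed by -0.35 ± 0.16 (SE, adjusted p = 0.554). Cyp2d12 averaged 14.27 ± 0.40 in F1 and 14.69 ± 0.15 in CT and thus differed by -0.43 ± 0.21 (SE, adjusted p = 0.591). Cyp3a41b and Cyp3a44, both higher in female liver, differed by -0.40 ± 0.20 (SE, adjusted p = 0.6) and by -0.26 ± 0.15 (SE, adjusted p = 0.652). Their signs were those of Cyp3a41a, whose promoter sequence is close to both. In eWAT the smallest p values among these members were those of Cyp3a44 and Cyp2c40, both of the list higher in female liver. Cyp3a44 averaged 4.63 ± 0.68 in F1 and 3.68 ± 0.78 in CT and thus differed by 0.95 ± 0.44 (SE, adjusted p = 0.511). Cyp2c40 averaged 4.33 ± 0.97 in F1 and 3.40 ± 0.49 in CT and thus differed by 0.92 ± 0.45 (SE, adjusted p = 0.533). Over all of these members that entered each test, differences lay between -0.43 (Cyp2d12) and 0.51 (Cyp2c40) in liver and between -0.21 (Cyp3a59) and 1.65 (Cyp2c23) in eWAT. With the hepatocyte marker covariate the eWAT difference of Cyp2c23 was 0.085.

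Whether the F1 effect differs between the tissues was tested as an interaction, (liver F1 minus CT) minus (eWAT F1 minus CT). No member was called among the 47 that entered, beside 0.0813% of all genes (12 of 14760). At an unadjusted p under 0.05, 9 were lower and 0 higher, beside 4.97% and 4.91% of all genes: Cyp2e1, Cyp2c39, Cyp2c54, Cyp2f2, Cyp3a44, Cyp2u1, Cyp2j9, Cyp2d22 and Cyp2j13, of which Cyp3a44 and Cyp2j13 were named after their values were seen. By sign 40 of the 47 were lower and 7 higher, beside 49.5% of all genes higher. All 8 hepatocyte markers were lower too, with a median interaction of -1.945 beside -0.70 for the members, and none was called; their part in the members' interactions was not tested. These 9 interactions of the members ran from -3.01 for Cyp2f2 to -0.645 for Cyp2u1. For Cyp2e1 the interaction was -0.98 ± 0.24 (SE, adjusted p = 0.169); with a trended and robust variance its adjusted p was 0.0262. The scale's top limits the liver term of Cyp2e1, and it also narrows the liver spread that enters the variance behind both p-values.

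The regulators of these genes and their partners are given from lists of other genes of the pathway. Of 23 receptors and factors of P450 genes, 14 had a higher and 9 a lower F1 mean in liver, none called. In eWAT 13 of the 19 that entered were higher, 5 lower and 1 equal, none called. Hnf4a of this list is also 1 of the 8 hepatocyte markers, which all had higher F1 means in eWAT. The part of hepatocyte RNA in the eWAT count was not tested. Rxra, the shared partner of CAR and PXR, differed by 0.43 ± 0.15 in liver (SE, adjusted p = 0.414), and Ppara, the fatty acid receptor, by 0.97 ± 0.33 in eWAT (adjusted p = 0.412). Of 16 electron donors and haem supply genes, 3 were higher and 13 lower in liver and 9 higher and 7 lower in eWAT, none called. Alas1, the first enzyme of haem synthesis, was at 13.89, 14.13, 13.78 and 13.66 in eWAT F1 and at 13.21, 12.94, 12.78 and 13.27 in eWAT CT, with no overlap, and differed by 0.82 ± 0.18 (SE, adjusted p = 0.362).

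Other targets of the same receptors were not called either. Of 15 other CAR and PXR targets, 3 were higher and 12 lower in liver and 12 higher and 3 lower in eWAT. Abcc2, Ces2a, Slco1a4 and Sult1d1 of this list were highest in eWAT F1 replicate 4, as most hepatocyte markers were. Others, such as Alas1, were not. The part of hepatocyte RNA in the eWAT count was not tested. Abcc3, a transporter of conjugates, was at 15.95, 16.53, 16.09 and 16.46 in liver F1 and at 17.18, 17.20, 17.04 and 17.21 in liver CT, without overlap, and differed by -0.90 ± 0.17 (SE, adjusted p = 0.0966). Of 4 other AhR targets that entered, 2 were higher and 2 lower in liver and 1 higher and 3 lower in eWAT. Of the 22 acute phase genes 21 were higher in F1 in liver, and 1 was called: the metallothionein gene Mt2, higher by 4.88 ± 0.41 (SE, adjusted p = 0.00128). In eWAT 19 of these 22 had a higher F1 mean and 3 a lower one, none called. Fga, Fgb, Fgg, Hpx, Itih3 and Itih4 were highest there in F1 replicate 4, as most hepatocyte markers were. Others, such as Cp and Lbp, were not. The part of hepatocyte RNA in this count was not tested either.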

How the data were processed

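Total RNA of frozen liver and eWAT was hybridized to Affymetrix arrays, 150 ng per sample, per the labels' protocols. Per the submitters' processing notes, the deposited log2 values came from RMA and Transcriptome Analysis Console 4.0; the genome build of the probe sets is not given in the sources used here. Of 22206 probe sets, 19572 had 1 gene symbol, 0 several and 2634 none, and 55 symbols had several probe sets, of which the brightest was used. RMA gives no measure of background per probe, and the number of arrays limits the precision.

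Linear models with moderated variance (limma 3.58.1, run under R 4.3.3) compared the groups (4 against 4 libraries, and all 16 for the interaction), after dropping genes below the 25th percentile, with Benjamini-Hochberg adjustment over all genes tested. The procedure was tested on simulated data. Members were chosen by symbol alone, but the choice of this family and of the gene lists was made with earlier results of these data known. Named with every library's value were the up to 12 members with the smallest unadjusted p under 0.05 per tissue, the 5 with the highest level per tissue and a set of 11 genes, of which Cyp2c29 was not analysed here. Up to 3 further members per subfamily, by smallest p, could be named with group means. Others were chosen after their values were seen, as said beside them. The labels name no pairing by replicate number. Correlations of same-numbered deviations ran from -0.057 to 0.058 between F1 and CT in liver, from -0.312 to 0.224 in eWAT and from 0.011 to 0.05 between tissues. Between tissues most libraries correlated best with their own number. Whether same-numbered liver and eWAT libraries came from the same animal is not given. Apart from the replicate block, the fits treated them as independent. Promoters came from RefSeq (GRCm38.p6). Dim filters, normalizations, variance models, array weights, a replicate block, each library left out and 5 alternatives added after seeing the data were tried.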

Additional observations from a re-analysis of the deposited data

Results flagged for a closer look

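In 92 groups of 4 libraries, over the 23 members named with every library's value, 6 had a highest or lowest library far from the other 3 (a gap above Dixon's 95% critical value); chance alone flags about 1 group in 20. Cyp1a1 was at 5.71 in eWAT F1 replicate 1, against 2.02 to 2.51 in the other 3 F1 libraries; Svs2 was at 16.22 in that library. Cyp2c38 was at 11.05 in liver CT replicate 1, against 12.56 to 12.62 in the other 3, and at 3.83 in eWAT CT replicate 2, against 5.40 to 5.59. Cyp2j8 was at 3.71 in liver F1 replicate 1, against 4.29 to 4.37. In the remaining 2 groups the whole range was narrow: Cyp2d9 was at 19.30 in liver CT replicate 4, against 19.22 to 19.23, and Cyp2e1 was at 19.93 in liver CT replicate 2, against 19.92 in the other 3.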

How the results depend on the processing

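No member was called in liver between F1 and CT under any alternative run. In eWAT the exception was Cyp2e1, called when all 16 samples entered one fit (0.92, adjusted p = 0.0471, 1 member). In the interaction it was Cyp2e1 with a trended and robust variance (1 member, adjusted p = 0.0262). Both fits pool the spread of both tissues, and liver values of Cyp2e1 sit at the top of the scale, which narrows that spread. Over all genes, the 23 calls in liver became 74 with a trended and robust variance, 51 with all 16 samples, 2 with the acute phase covariate and 6 with the replicate block, and 7 to 24 with 1 library left out. The 0 calls in eWAT became 25 with all 16 samples and 0 to 1 with 1 library left out. The 12 interaction calls became 36 with a trended and robust variance, 7 with the replicate block and 7 to 25 with 1 library left out. The labels name no pairing, but 6 of 8 libraries correlated best with their own number across tissues, so shared animals are possible. Under the block Cyp2b10 lost its tissue call in F1 (0.74, adjusted p = 0.0785), as it did without several single libraries (0.49 to 0.80, largest adjusted p = 0.125).

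Between F1 and CT, signs turned for members that were not called. In liver the acute phase covariate gave Cyp1b1 -0.11, Cyp2a5 -1.11, Cyp2b10 0.18, Cyp2f2 -0.035 and Cyp3a11 0.002, and leaving out F1 replicates 3 and 4 gave Cyp2a5 -0.092 and Cyp2b10 0.10. With 1 library left out, liver differences ran from -0.24 to 0.15 for Cyp2b10, from -0.11 to 0.74 for Cyp2c55, from -0.21 to 0.081 for Cyp2d13, from -0.03 to 0.077 for Cyp2f2 and from -0.24 to 0.016 for Cyp2r1. In eWAT Cyp2r1 was -0.008 after quantile normalization, -0.13 without F1 replicates 1 and 4 and -0.093 to 0.14 with 1 library left out. The hepatocyte marker covariate gave Cyp2d26 -1.01, Cyp2d9 -0.55, Cyp2d13 -0.60, Cyp2c38 -0.064 and Cyp3a11 -0.10, and leaving out F1 replicate 4 and CT replicate 2 gave -1.05 for Cyp2d26, -0.48 for Cyp2d9, -0.59 for Cyp2d13, -0.37 for Cyp2c38 and -0.22 for Cyp3a11. Cyp3a13 was -0.048 without F1 replicates 1 and 4. With 1 library left out, eWAT differences ran from -0.25 to 1.69 for Cyp2d26 and from -0.087 to 0.70 for Cyp2c38. The interaction of Cyp3a13 ran from -0.24 to 0.75. Between tissues, quantile normalization gave Cyp2c66 -0.44 in F1 (adjusted p = 0.147) and 0.016 in CT, Cyp2j9 0.83 in F1 and 1.79 in CT (both called), and Cyp2e1 0.31 in F1 (adjusted p = 0.146); centring gave Cyp2c66 0.66 in F1 and 0.87 in CT, and Cyp2j9 0.92 in F1 and 1.85 in CT, all 4 called. Without liver F1 replicate 2, Cyp2j9 was called lower in liver in F1 (-0.56, adjusted p = 0.0485). The cause was not tested, other than that fewer samples entered where libraries were left out. The top of the scale limits Cyp2e1 in liver, and dim probe sets limit the 7 members not tested in liver and the 19 not tested in eWAT.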

Other observations

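Genes of the liver zones and the clock, which the account above leaves out, were set beside the P450 genes from the same lists. In liver, 4 of 13 pericentral genes that are no P450 had a higher F1 mean and 9 a lower one, while 9 of 11 periportal genes were higher, 1 lower and 1 equal; none was called. Slc13a3, a pericentral dicarboxylate transporter, differed by 0.73 ± 0.25 (SE, limma adjusted p = 0.422) and Lgr5, a Wnt target of pericentral cells, by -0.65 ± 0.29 (adjusted p = 0.545). In eWAT, 9 of 13 pericentral genes were higher and 4 lower, and 11 of 11 periportal genes were higher, with none called; the hepatocyte markers were higher in F1 there too.

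Of 10 clock and PAR-bZIP factors, which drive daily rhythms of several P450 genes, 9 had a higher F1 mean and 1 a lower one in liver, and 8 and 2 in eWAT. None was called. Nr1d1, the clock repressor REV-ERB alpha, was at 12.87, 13.96, 13.90 and 14.20 in liver F1 and at 11.69, 12.27, 12.14 and 12.53 in liver CT, without overlap, and differed by 1.58 ± 0.29 (SE, limma adjusted p = 0.0966). Dbp, a PAR-bZIP factor, differed by 2.82 ± 0.83 in liver (adjusted p = 0.326) and by 1.32 ± 0.48 in eWAT (adjusted p = 0.420). The hour at which each animal was sampled is not given, so time of day and father cannot be told apart.

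Markers of other cell types were not called in either tissue. In eWAT, F1 means were higher for 6 of 8 adipocyte, 1 of 7 macrophage, 3 of 6 exocrine pancreas, 3 of 5 male tract, 0 of 5 skeletal muscle, 1 of 5 endothelial, 3 of 5 mesothelial and 3 of 3 T and B cell markers that entered the test. In liver they were higher for 3 of 6 adipocyte, 5 of 8 macrophage, 9 of 9 exocrine pancreas, 1 of 4 male tract, 4 of 5 skeletal muscle, 2 of 5 endothelial, 1 of 3 mesothelial and 2 of 4 T and B cell markers. The exocrine pancreas markers were high in liver F1 replicate 4. Cpa1, for one, was at 14.60 there and at 3.63 to 3.86 in the other F1 libraries. The 3 male tract markers with a higher F1 mean in eWAT were Svs2, Svs4 and Svs5. They were at 16.22, 14.01 and 14.51 in F1 replicate 1 and low in the other eWAT libraries. Of the 8 hepatocyte markers in liver, Alb, Apoa1, Apob and Serpina1a were at 19.93, the top of the scale, in all 8 libraries and had no measurable difference; of the other 4, Cps1 and Hnf4a had a higher F1 mean and Tat and Ttr a lower one.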
